A study of Mus musculus with 17 samples.

Results

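The p53 gene Trp53 and 9 of its target genes, Mdm2, Cdkn1a, Ccng1, Zmat3, Phlda3, Sesn2, Eda2r, Bbc3 and Trp53inp1, were followed across a suite of cell lines and, under 3 of the same labels, across single cells. The study describes the lines as breast cancer cells from the primary tumor and its metastases. The lines for single cells were picked from those profiled in bulk, but which isolate each single-cell library came from is not given in the sources used here. These 10 genes were taken by name from the 55450 genes of the bulk table, and all 10 had enough signal to be tested, among 15348 genes in total. The lines came from female FVB/NJ mice, 10 to 12 weeks old, that carry the polyomavirus middle T antigen under the MMTV promoter (MMTV-PyMT), which is active in mammary epithelium. Cells from the primary tumor of the mammary fat pad (MFP) and from the lung, the bone marrow (BM) and a lymph node (LN) were grown for about a month in conditions that favor cancer cells and then sorted. The LN, BM and lung cells were collected as CD44low/EpCAMhigh or CD44high/EpCAMhigh, while the labels give no CD44 status for MFP. Each of the 7 bulk groups has 2 libraries, grown from separate clones of separate animals, and each of the 3 single-cell groups (lung CD44high, lung CD44low and LN CD44high) has 1. All groups carry the transgene, so none is a normal mammary control. The labels call the source of the lung CD44low lines a lung node.

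p53 is a transcription factor that is held low by Mdm2, a ubiquitin ligase that marks it for degradation and is itself a p53 target, so that the pair form a feedback loop. On DNA damage or oncogene stress p53 escapes Mdm2 and raises genes that halt the cell cycle, such as Cdkn1a (p21, an inhibitor of cyclin-dependent kinases), or that lead to apoptosis, such as Bbc3 (PUMA). Because p53 is controlled largely as a protein, the level of Trp53 mRNA and the levels of its targets can differ in their patterns. Mutations of Trp53 were not analysed here.

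p53 binds DNA at a response element made of 2 half-sites of 10 bases each. A match was counted where 2 half-sites stood side by side with the C and G of each core in place and at most 2 mismatches in 20 bases. This element reads the same on both strands, and no other motif was searched. RefSeq promoter windows on GRCm38.p6, 250 bases before and 50 after each start, were at hand for 8 of the 10 genes (11 windows), and Zmat3 and Trp53inp1 had no entry. A match was present in 2 of these windows, against 0.326% of all 32851 promoter windows. The limit on mismatches was set after the windows of the 10 genes were read, so this contrast is a description only. The first lies in the upstream of the 2 Cdkn1a windows, on the plus strand, 51 bases before that start and 2841 bases before the downstream start. The other lies in the Ccng1 window, on the minus strand, 195 bases before the start. Each has 1 mismatch. Both windows are shown because they are the ones that hold a match, with the matched element in capitals.
Cdkn1a (chr17:29090729-29091028): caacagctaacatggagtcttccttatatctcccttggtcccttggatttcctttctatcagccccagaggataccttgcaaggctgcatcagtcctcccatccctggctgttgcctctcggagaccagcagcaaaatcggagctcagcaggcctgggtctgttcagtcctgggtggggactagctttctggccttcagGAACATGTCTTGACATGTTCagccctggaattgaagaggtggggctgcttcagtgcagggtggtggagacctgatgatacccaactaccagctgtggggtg
Ccng1 (chr11:40755237-40755536): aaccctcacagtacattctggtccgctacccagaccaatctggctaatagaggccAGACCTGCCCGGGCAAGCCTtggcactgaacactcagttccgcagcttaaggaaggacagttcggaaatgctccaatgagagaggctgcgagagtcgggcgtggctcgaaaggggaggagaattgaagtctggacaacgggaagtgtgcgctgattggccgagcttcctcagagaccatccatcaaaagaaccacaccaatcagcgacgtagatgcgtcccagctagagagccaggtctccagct
The match is a description of these letters, and the other windows say only that the motif was not met in them.

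Bulk levels were deposited as TPM, transcript levels scaled to a common total, which are corrected for length and can be compared between genes, but keep no record of the reads per library. Between 11508 and 13052 genes reached 1 TPM in a library. Tests were made with limma on log2(TPM + 1), and a gene passed when its Benjamini-Hochberg adjusted p over all genes tested was under 0.05. Fold changes are given on this scale, which shrinks the change of low genes, and the SE stands after each. In such bulk values fewer cells of a type and less RNA per cell cannot be told apart. The bulk mRNA of the markers used to sort the cells did not follow the labels. Cd44 was at 12.22 to 21.62 TPM in lung CD44low and 12.07 to 21.95 TPM in lung CD44high, at 43.77 to 74.90 TPM in BM CD44low and 49.00 to 50.49 TPM in BM CD44high, and at 82.72 to 146.70 TPM in LN CD44low and 49.04 to 52.26 TPM in LN CD44high. In none of the 3 organs was it thus higher in both CD44high libraries than in both CD44low libraries, while sorting was by the surface protein. Epcam was listed at 0 and 0 TPM in lung CD44low and at 0.23 and 0.86 TPM in lung CD44high, against 315 to 941 TPM in the 10 other libraries. The summed level of 9 epithelial markers was 1.74 to 2.42 TPM in lung CD44low and 15.7 to 87.5 TPM in lung CD44high, against 2091 to 7708 TPM elsewhere. Of these 9 markers, 5 were at 0 in both lung CD44low libraries and 4 in both lung CD44high libraries. The summed level of 8 fibroblast markers was 4708 to 5117 TPM in lung CD44low, 85.7 to 194.8 TPM in lung CD44high and at most 19.9 TPM elsewhere, and 5 smooth muscle markers reached 755 to 821 TPM in lung CD44low only, with at most 8.42 TPM elsewhere. Mitochondrial genes held 15.9% and 18.4% of TPM in lung CD44high, above the 4.28% to 10.2% of the other groups. The study names cancer-associated fibroblasts as a possible content of its lung CD44low single-cell clusters lungL1 and lungL2. The part of these cell markers and of the mitochondrial share in the lung results was not tested. The second BM CD44low library stood apart from the first in several of the genes below.

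Trp53 (ENSMUSG00000059552.13, chr11:69580359-69591873, plus strand of mm10) encodes p53 itself. Its level was 271.63 and 212.66 TPM in MFP, and in LN it was 297.27 and 161.27 TPM in CD44low and 269.58 and 304.74 TPM in CD44high cells. In BM it was 335.72 and 184.73 TPM in CD44low and 267.16 and 306.55 TPM in CD44high cells. In lung it was 110.41 and 119.61 TPM in CD44low and 123.72 and 106.89 TPM in CD44high cells. The 4 lung libraries thus lay below the 10 others, and the 2 lung groups overlapped each other. Against LN and BM, Trp53 fell in the lung lines by 1.16 on the log2 scale (SE 0.20, adjusted p = 0.000719). Against MFP, the change was -1.06 in both lung CD44low (SE 0.33, adjusted p = 0.0248) and lung CD44high (SE 0.33, adjusted p = 0.0303), and once libraries were scaled by their median ratio both missed the threshold (adjusted p = 0.0539 and 0.0699), as they did with no filter on low values (0.0505 and 0.0605). The lung CD44high call against MFP was also lost without any 1 of the MFP or lung CD44high libraries (adjusted p = 0.0595 to 0.168), and the lung CD44low call without either of its own libraries or the first MFP library (0.0794 to 0.139). The order of the 5 other groups, from LN CD44high (287 TPM on average) to LN CD44low (229 TPM), had overlapping libraries at each step.

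Mdm2 (ENSMUSG00000020184.15, chr10:117688875-117710758, minus strand), the ubiquitin ligase that restrains p53, was highest in the primary tumor line. It stood at 132.97 and 102.37 TPM in MFP, at 93.92 and 63.14 TPM in LN CD44low and at 45.52 and 45.59 TPM in LN CD44high. BM CD44low cells had 43.25 and 36.52 TPM, and BM CD44high cells 31.43 and 38.77 TPM. Lung CD44low cells had 44.41 and 83.82 TPM, and lung CD44high cells 54.57 and 55.04 TPM. Both MFP libraries lay above the 12 others, and the lung groups, unlike in Trp53, were in the middle of the range. Compared to MFP, Mdm2 fell by 1.53 (SE 0.30, adjusted p = 0.00573) in BM CD44low and by 1.71 (SE 0.30, adjusted p = 0.00281) in BM CD44high. It fell by 1.34 (SE 0.30, adjusted p = 0.0109) in LN CD44high, by 0.92 (SE 0.30, adjusted p = 0.0319) in lung CD44low and by 1.08 (SE 0.30, adjusted p = 0.0198) in lung CD44high. The LN CD44high call was lost with median ratio scaling (a change of -0.80, adjusted p = 0.0863), and it was also lost without either of its own libraries or the first MFP library (adjusted p = 0.0591 to 0.0874). The call in lung CD44high was lost without either of its libraries or the first MFP library, with adjusted p-values from 0.0710 to 0.132, and that in BM CD44low without the first MFP library (0.0539). In lung CD44low, Mdm2 lost the call without its first library (a change of -0.47, adjusted p = 0.275) and without either MFP library (0.175 and 0.0527), and with no filter on low values (0.0587).

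Cdkn1a (ENSMUSG00000023067.14, chr17:29090976-29100727, plus strand) encodes p21, which stops cells before DNA replication. The MFP libraries had 325.45 and 225.96 TPM, and its level was 197.80 and 426.29 TPM in LN CD44low and 228.34 and 142.60 TPM in LN CD44high. It was 283.71 and 185.67 TPM in BM CD44low and 246.76 and 142.42 TPM in BM CD44high. In lung it was 344.79 and 351.39 TPM in CD44low and 14.13 and 24.90 TPM in CD44high cells. Both lung CD44high libraries therefore lay far below the 12 others, all of which overlapped in 1 range from 142.42 to 426.29 TPM. Cdkn1a fell by 4.14 (SE 0.45, adjusted p = 7.61e-05) in lung CD44high against lung CD44low and by 3.78 (SE 0.45, adjusted p = 0.000141) against MFP. On average over both lung groups, Cdkn1a fell by 1.40 against LN and BM (SE 0.27, adjusted p = 0.00153), although lung CD44low cells had the highest group mean.

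Ccng1 (ENSMUSG00000020326.7, chr11:40748552-40755311, minus strand) encodes cyclin G1, which acts on Mdm2 through a phosphatase. MFP libraries had 197.42 and 177.74 TPM, with levels of 190.25 and 110.97 TPM in LN CD44low and 83.51 and 95.80 TPM in LN CD44high. It had 79.18 and 89.40 TPM in BM CD44low and 49.38 and 66.93 TPM in BM CD44high. In lung, CD44low cells had 137.67 and 241.49 TPM and CD44high cells 27.02 and 25.72 TPM. As with Cdkn1a, the 2 lung CD44high libraries were the lowest of the 14. Ccng1 fell by 2.74 (SE 0.31, adjusted p = 0.000109) in lung CD44high against lung CD44low and by 2.78 (SE 0.31, adjusted p = 9.99e-05) against MFP. It was also lower than MFP in BM CD44high, by a change of -1.69 (SE 0.31, adjusted p = 0.00346), in BM CD44low, by -1.15 (SE 0.31, adjusted p = 0.0251), and in LN CD44high, by -1.06 (SE 0.31, adjusted p = 0.0341). The last was lost with median ratio scaling (a change of -0.52, adjusted p = 0.209) and with no filter on low values (0.0677), and under that scaling the change in BM CD44high was -1.12 (adjusted p = 0.0117). Those in LN CD44high and BM CD44low were lost without any 1 of their own libraries or of the MFP libraries (adjusted p = 0.0561 to 0.161).

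Phlda3 (ENSMUSG00000041801.5, chr1:135766119-135769136, plus strand) encodes an inhibitor of Akt. Lung CD44low cells stood out with 191.61 and 194.31 TPM, while lung CD44high cells had 9.27 and 8.39 TPM. MFP had 30.13 and 20.60 TPM, LN CD44low 45.58 and 32.84 TPM, and LN CD44high 19.48 and 15.81 TPM. BM CD44high had 7.99 and 9.75 TPM, and BM CD44low 15.82 TPM in one library and 96.06 TPM in the second, the highest value outside lung. Phlda3 rose by 2.90 (SE 0.62, adjusted p = 0.00394) in lung CD44low against MFP. It fell by 4.30 (SE 0.62, adjusted p = 0.000574) from lung CD44low to lung CD44high, where its libraries overlapped those of BM CD44high. Without either BM CD44low library Phlda3 also passed against MFP as a fall of both groups, with a change of -1.40 in lung CD44high (adjusted p = 0.00168 and 0.00172) and in BM CD44high (0.00274 and 0.00278). Without the first alone it passed as a rise in BM CD44low (1.90, adjusted p = 0.00163).

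Sesn2 (ENSMUSG00000028893.8, chr4:132492032-132510501, minus strand) encodes sestrin 2, a stress protein that restrains mTORC1. MFP libraries stood at 17.61 and 12.19 TPM, and its level was 13.81 and 10.76 TPM in LN CD44low and 10.81 and 8.56 TPM in LN CD44high. It was 7.63 and 7.82 TPM in BM CD44low and 9.66 and 6.42 TPM in BM CD44high. In lung it was 14.43 and 16.91 TPM in CD44low and 3.60 and 2.96 TPM in CD44high cells. Both lung CD44high libraries again lay below the other 12. In lung CD44high cells Sesn2 fell by 1.96 against lung CD44low (SE 0.28, adjusted p = 0.000574) and fell by 1.88 against MFP (SE 0.28, adjusted p = 0.000664).

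Eda2r (ENSMUSG00000034457.10, chrX:97333840-97377216, minus strand), a receptor of the tumor necrosis factor receptor family that binds ectodysplasin A2, varied most. Lung CD44low cells had 30.12 and 34.41 TPM and MFP 15.93 and 14.76 TPM. In the 8 LN and BM libraries its level was 0.29 to 2.32 TPM, and in both lung CD44high libraries it was listed at 0. The groups were thus ordered without overlap, with lung CD44low above MFP, MFP above LN and BM, and lung CD44high at the bottom. Compared to MFP, Eda2r rose by 1.02 (SE 0.30, adjusted p = 0.0206) in lung CD44low, a call that was lost with a pseudocount of 0.1 (adjusted p = 0.105) and without either of the MFP libraries or either of its own (0.0636 to 0.111). It fell by 2.78 in LN CD44low (SE 0.30, adjusted p = 0.000212), by 3.14 in LN CD44high (SE 0.30, adjusted p = 7.94e-05), by 2.75 in BM CD44low (SE 0.30, adjusted p = 0.000181) and by 3.65 in BM CD44high (SE 0.30, adjusted p = 2.73e-05). No fold change is given against lung CD44high, where both values are 0. The test itself passed there against lung CD44low (adjusted p = 1.04e-06) and against MFP (adjusted p = 7.18e-06).

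The remaining 3 targets moved less or less evenly. Trp53inp1 (ENSMUSG00000028211.11, chr4:11156431-11174379), a p53-induced nuclear protein with a part in autophagy, was highest in MFP at 17.41 and 21.53 TPM, above the 2.79 to 11.79 TPM of LN and BM. It was 11.80 and 13.30 TPM in lung CD44low and 14.92 and 4.33 TPM in lung CD44high. Compared to MFP it fell by 1.68 (SE 0.50, adjusted p = 0.0354) in LN CD44high, by 1.72 (SE 0.50, adjusted p = 0.0329) in BM CD44low and by 2.40 (SE 0.50, adjusted p = 0.00635) in BM CD44high. The first was lost with median ratio scaling (adjusted p = 0.102) and the first 2 with no filter on low values (0.0705 and 0.0632). In LN CD44high the call was also lost without any 1 of its own libraries, the MFP libraries, the BM CD44high libraries or the lung CD44low libraries (0.0508 to 0.175), and in BM CD44low without its first library or either MFP library (0.101 to 0.157). Bbc3 (ENSMUSG00000002083.13, chr7:16308393-16318205) encodes PUMA, which promotes apoptosis, and ranged from 0.76 to 5.13 TPM except in the second BM CD44low library, which had 15.55 TPM beside 2.50 TPM in the first. Both lung CD44high libraries (1.28 and 0.76 TPM) were below the 12 others, but Bbc3 passed the test in none of the 12 comparisons. Zmat3 (ENSMUSG00000027663.12, chr3:32334792-32366014), an RNA-binding protein, ranged from 1.04 to 4.84 TPM and also passed in none. When either BM CD44low library was left out of the fit, the Bbc3 difference between the lung groups (3.68 and 4.56 TPM in CD44low) passed, at an adjusted p of 0.00851 and 0.00826. Zmat3 passed there too, at an adjusted p of 0.0403 and 0.0399, and with median ratio scaling (0.0413). Without either BM CD44low library Bbc3 also passed against MFP as a rise in LN CD44high (0.99, adjusted p = 0.0403 and 0.0395) and in lung CD44low (0.88, adjusted p = 0.0402 and 0.0394), and without the first as a rise in BM CD44low (2.58, adjusted p = 0.00128), then read from the second library alone.

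**Figure D1:**
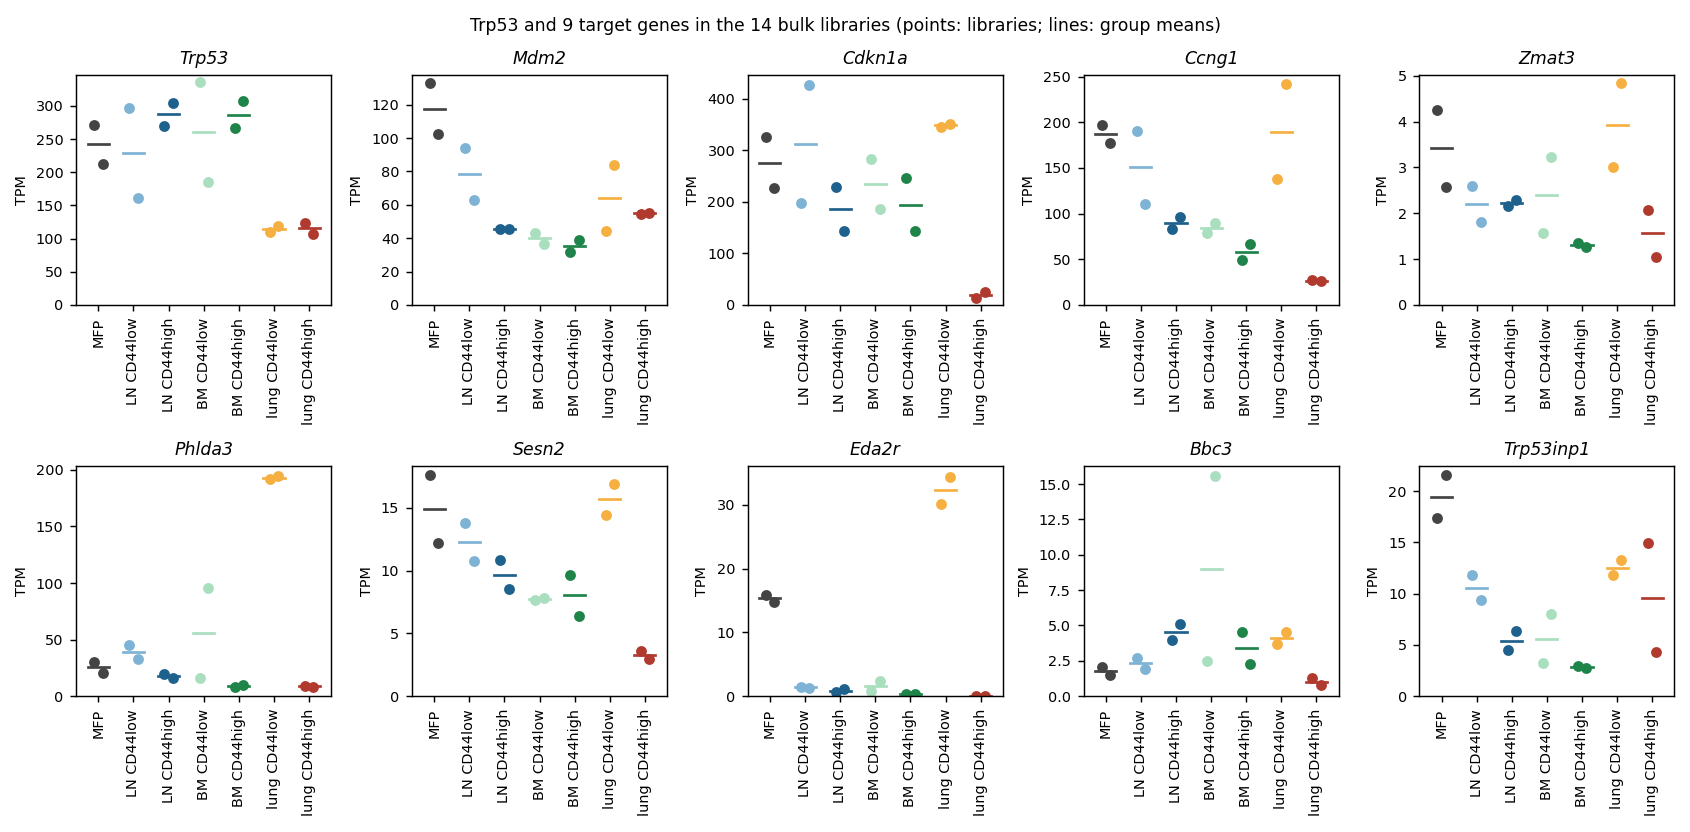
Level of Trp53 and its 9 target genes in TPM (linear axes from 0) in the 14 bulk libraries. Each point is 1 library and each line the mean of a group. In the lung CD44high group Cdkn1a, Ccng1, Sesn2, Eda2r and Bbc3 lie below the other 12 libraries, while Trp53 is at the same level in both lung groups.

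Set side by side, the lung groups had overlapping levels of Trp53 and differed in 5 of its 9 targets. From lung CD44low to lung CD44high, 5 of the 10 genes fell (Cdkn1a, Ccng1, Phlda3, Sesn2 and Eda2r) and none rose. Of all genes tested, 30.7% passed in this comparison, 18.5% as falls. The median change of the 10 genes was -1.66, against -0.01 over all genes. Trp53 itself did not pass, nor did Mdm2, the target that feeds back on it. In 5 of the 10 genes both lung CD44high libraries were below the 12 others, which held for 9.04% of all genes. The 5 falls passed in each of 14 fits that left out 1 library, where the count ranged from 5 to 7.

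In LN and BM none of the 10 genes passed between CD44high and CD44low cells in limma, where 0.378% and 0.15% of all genes did. At an unadjusted p under 0.05 there was 1 in LN (Mdm2), against 10.1% of all genes, and there were 2 in BM (Phlda3 and Eda2r), against 7.4%. Without the first BM CD44low library, the BM comparison rests on the second alone, and 3 genes then passed, with changes of -3.30 in Phlda3, -1.35 in Eda2r and -1.95 in Bbc3, while the share of all genes passing went to 15.6%. The CD44 difference in lung was larger than that in LN and BM, by an interaction contrast, in the same 5 genes as above. The difference between the differences was -3.65 (SE 0.55, adjusted p = 0.001) in Cdkn1a and -2.13 (SE 0.38, adjusted p = 0.00303) in Ccng1. It was -2.74 (SE 0.76, adjusted p = 0.0287) in Phlda3 and -1.82 (SE 0.35, adjusted p = 0.00432) in Sesn2, and Eda2r passed at an adjusted p of 1.74e-05. Of all genes, 22% passed this contrast, 11.3% in the negative direction. Bbc3 did not pass it with all libraries, and its difference was -1.86 without the second BM CD44low library. The Phlda3 interaction was lost without any 1 of the lung libraries, the first LN CD44high library or the second BM CD44high library (adjusted p = 0.0572 to 0.105) and with no filter on low values (0.0595).

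Averaged over the 3 organs, CD44high cells had lower levels of the same 5 genes, against 17.3% of all genes passing, 13.7% as falls. This mean includes lung, where the same 5 genes passed, while none of the 10 genes passed in LN or BM alone. The changes were -1.70 in Cdkn1a (SE 0.26, adjusted p = 0.00172), -1.33 in Ccng1 (SE 0.18, adjusted p = 0.000859), -2.48 in Phlda3 (SE 0.36, adjusted p = 0.00128) and -0.75 in Sesn2 (SE 0.16, adjusted p = 0.0129), with Eda2r at an adjusted p of 3.25e-05. The libraries of the CD44high and CD44low cells overlapped in each of them. Without the first BM CD44low library 8 genes passed, against 31.6% of all genes, one of them Trp53inp1 (-0.88, adjusted p = 0.0392), which also passed without the first lung CD44high library (-0.96, adjusted p = 0.03). Sesn2 did not pass without the second lung CD44low library (adjusted p = 0.0623).

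**Figure D2:**
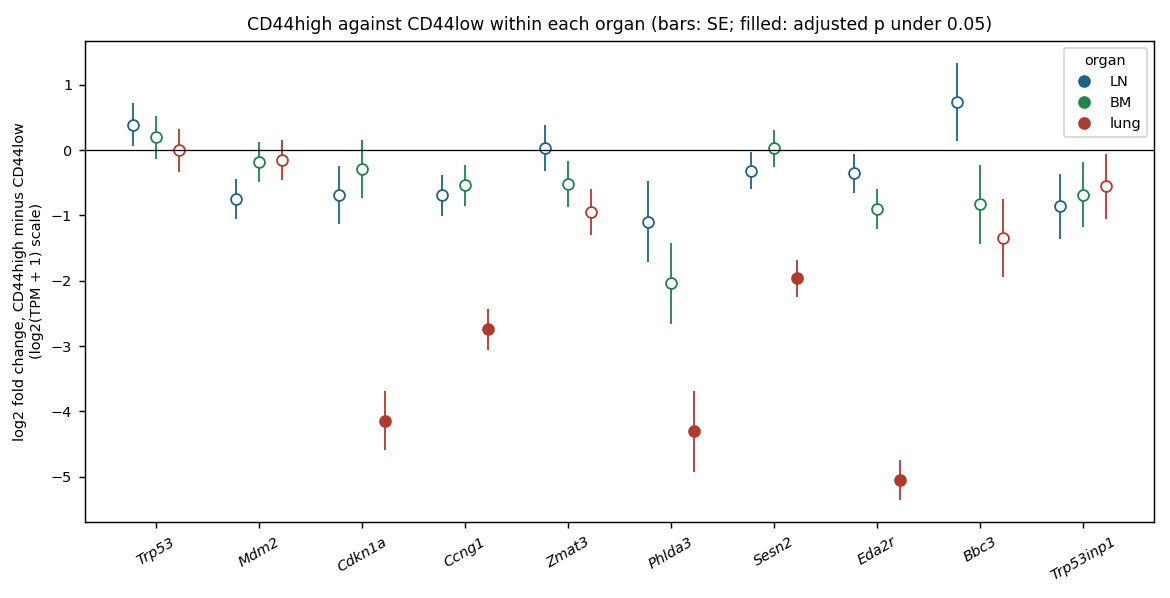
Log2 fold change of CD44high against CD44low cells (log2(TPM + 1) scale) for the 10 genes in LN, BM and lung, 2 libraries a group. Bars are the SE, and filled points passed at an adjusted p under 0.05. The 5 filled points are all from lung, and the Eda2r value there depends on the pseudocount because both CD44high libraries are at 0.

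Compared to MFP, LN CD44high and both BM groups had lower levels of the same 4 genes, and LN CD44low of 1 of them. These comparisons share the 2 MFP libraries. Only Eda2r passed in LN CD44low, as a fall, where 14% of all genes did, 9.51% as falls. Mdm2, Ccng1, Eda2r and Trp53inp1 passed, as falls, in LN CD44high (23.8% of all genes, 17.9% as falls), in BM CD44low (23.2%, 13.8% as falls) and in BM CD44high (27%, 18.6% as falls). Both MFP libraries lay above all 8 LN and BM libraries in 3 genes (Mdm2, Eda2r and Trp53inp1), and 22.3% of all genes did the same, a share near that of the 10. These comparisons lean on how libraries are scaled: with median ratio scaling the median change of all genes moved from -0.30 to 0.03 in LN CD44high and from -0.34 to 0.05 in BM CD44high. The share of rises among all calls moved from between 24.7% and 40.4% to between 49.2% and 60.2% over these 4 comparisons, and in LN CD44high only Eda2r of the 10 genes then passed.

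In lung CD44low against MFP, Phlda3 and Eda2r rose and Trp53 and Mdm2 fell, in a comparison where 45% of all genes passed, 21.9% as rises and 23.1% as falls. In lung CD44high against MFP, 6 genes fell (Trp53, Mdm2, Cdkn1a, Ccng1, Sesn2 and Eda2r) and none rose, against 36.1% of all genes passing, 21.2% as falls. Without the first lung CD44high library Trp53inp1 passed there too, as a fall (-1.93, adjusted p = 0.0153). In the lung lines against the LN and BM lines, where 59.9% of all genes passed, 35.9% as rises and 24% as falls, Trp53 and Cdkn1a fell and Eda2r and Trp53inp1 rose. The Eda2r contrast averages its highest and its lowest group, and since the latter is at 0 no fold change is given (adjusted p = 6.07e-05, and 0.0243 with a pseudocount of 0.1). Trp53inp1 changed by 0.79 (SE 0.31, adjusted p = 0.0471), a call lost with median ratio scaling (adjusted p = 0.110) and in 12 of the 14 fits without 1 library, the exceptions being those without the second BM CD44low or the second lung CD44high library. Without the first lung CD44high library the change was 0.39, and without the second it was 1.18. Of the genes that did not pass in this contrast, 4 did with 1 library left out. Phlda3 did so as a rise without the first BM CD44low library (0.59, adjusted p = 0.00853) or the second (1.22, adjusted p = 0.000121), and Mdm2 as a rise without the first lung CD44low library (0.52, adjusted p = 0.0334). Bbc3 did so as a fall without the first BM CD44low library (-0.905, adjusted p = 0.00347), and Ccng1 as a fall without the second LN CD44low library (-0.44, adjusted p = 0.0476) or the second lung CD44low library (-0.55, adjusted p = 0.0411). With median ratio scaling the split here became 1 rise (Eda2r) and 5 falls, as Ccng1, Sesn2 and Bbc3 then passed (adjusted p = 0.00585, 0.0185 and 0.0478) and the share of rises among all calls moved from 60% to 49%. That share moved from 48.4% to 37.2% in the interaction contrast and from 20.8% to 34.1% in the mean over organs. In LN and BM between CD44high and CD44low cells it moved from 50% to 61.8% and from 47.8% to 64.5%. The lung CD44low count of 4 fell to 2 with no filter on low values and ranged from 1 to 5 without 1 library.

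Among 14 regulators of p53, Mdm4 and Bcl6, which restrain it, were higher in the lung lines, and the checkpoint kinases Chek1 and Chek2 were lower. Against LN and BM 5 of the 14 rose and 2 fell (35.7% and 14.3%), shares at or below the 35.9% and 24% of all genes, and with median ratio scaling 5 rose and 4 fell. Mdm4, the partner of Mdm2 that blocks p53, had 30.71 and 35.96 TPM in lung CD44low and 44.84 and 28.96 TPM in lung CD44high, against 4.98 to 29.59 TPM elsewhere, the highest being the second BM CD44low library. It rose by 1.83 against LN and BM (SE 0.37, adjusted p = 0.00173). Bcl6, a repressor that can lower Trp53, had 36.95 to 50.77 TPM in the 4 lung libraries and 2.21 to 11.41 TPM in the others, and rose by 3.21 against LN and BM (SE 0.31, adjusted p = 1.66e-05). Twist1 and Ep300 also rose in the lung lines, by 1.15 (SE 0.25, adjusted p = 0.00297) and by 0.91 (SE 0.31, adjusted p = 0.0274). Of the checkpoint kinases, Chek1 fell by 3.11 (SE 0.36, adjusted p = 4.94e-05) and Chek2 fell by 2.06 (SE 0.27, adjusted p = 0.000109). Cdkn2a, whose product p19Arf frees p53 from Mdm2, was listed at 0 in all 8 LN and BM libraries. MFP libraries were at 1.27 and 0.98 TPM, and it reached 4.57 and 4.43 TPM in lung CD44low and 0.65 and 0.28 TPM in lung CD44high, where it was lower than in lung CD44low (a change of -1.92, SE 0.17, adjusted p = 1.43e-05). The TPM of the gene does not separate p19Arf from p16Ink4a. Between the lung groups 2 of the 14 passed (14.3%, against 30.7% of all genes), Cdkn2a and Usp7, the enzyme that removes ubiquitin from Mdm2 and p53. Usp7 had 1.70 and 3.04 TPM in CD44low and 11.18 and 6.60 TPM in CD44high cells (a change of 1.54, SE 0.35, adjusted p = 0.00815). Atm, Atr, Ppm1d, Sirt1, Hipk2 and Kat5 passed in none of the 12 comparisons.

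A further 40 genes that p53 is known to raise, all of which were tested, did not move as one. From lung CD44low to lung CD44high 17 of the 40 fell (42.5%, against 18.5% of all genes) and 7 rose (17.5%, against 12.2%), with a median change of -0.70 against -0.01 over all genes. The largest falls with separate groups were in Gdf15, a secreted stress factor (10.18 and 11.85 TPM to 0 and 0.23 TPM), Plk3, a stress kinase (16.73 and 24.66 to 1.08 and 1.05 TPM), and Thbs1, an inhibitor of angiogenesis (3397.88 and 5389.10 to 472.92 and 373.06 TPM). Gdf15 fell by 3.43 (SE 0.21, adjusted p = 1.05e-06), Plk3 fell by 3.37 (SE 0.60, adjusted p = 0.00216) and Thbs1 fell by 3.35 (SE 0.66, adjusted p = 0.00399). Thbs1 is also expressed by fibroblasts, and the summed fibroblast markers went from 4708 and 5117 TPM to 194.8 and 85.7 TPM between the same groups; their part in its change was not tested. Those that rose most were Fdxr, a mitochondrial reductase (5.33 and 5.96 to 24.21 and 27.80 TPM), Sulf2, an extracellular sulfatase, and Tap1, a peptide transporter of antigen presentation. Fdxr rose by 2.02 (SE 0.34, adjusted p = 0.0015), Sulf2 rose by 1.65 (SE 0.55, adjusted p = 0.0477) and Tap1 rose by 1.43 (SE 0.37, adjusted p = 0.015). The death receptor Fas, another target, was at 105.80 and 115.63 TPM in CD44low and 324.55 and 214.57 TPM in CD44high lung cells, against 3.74 to 54.90 TPM in all other libraries.

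Against the LN and BM lines, 18 of the 40 rose in the lung lines (45%, against 35.9% of all genes) and 10 fell (25%, against 24%), and with median ratio scaling 17 rose and 14 fell. In LN and BM, none of the 40 passed between CD44high and CD44low cells in limma, and at an unadjusted p under 0.05 there were 6 in LN, where 10.1% of all genes had one, and 3 in BM, where 7.4% had one. In the interaction contrast 8 were more negative in lung (20%, against 11.3% of all genes), led by Dram1, Gdf15 and Gadd45a, and 6 more positive (15%, against 10.6%), led by Fdxr, Sulf2 and Sertad1. With median ratio scaling these counts were 10 and 6. Gadd45a, which responds to DNA damage, stood at 105.46 and 104.33 TPM in lung CD44low, 16.30 and 11.24 TPM in lung CD44high and 2.50 to 33.10 TPM elsewhere. Compared to MFP, lung CD44low cells had 11 rises (27.5%, against 21.9% of all genes), led by Gadd45a (a change of 4.28, SE 0.58, adjusted p = 0.000233), and 13 falls (32.5%, against 23.1%), led by Gtse1, a protein that removes p53 from the nucleus (a change of -3.35, SE 0.70, adjusted p = 0.0036). With median ratio scaling the split turned to 14 rises and 11 falls. Lung CD44high cells had 6 rises (15%, against 14.9% of all genes), led by Fas (4.50, SE 0.32, adjusted p = 4.77e-06), and 15 falls (37.5%, against 21.2%), led by Ddit4, an inhibitor of mTORC1 (-4.68, SE 0.30, adjusted p = 2.52e-06). In the LN and BM lines, counts of rises and falls against MFP were 4 and 2 in LN CD44low, 1 and 9 in LN CD44high, 2 and 6 in BM CD44low and 3 and 9 in BM CD44high. Of all genes 4.5% and 9.51%, 5.87% and 17.9%, 9.36% and 13.8%, and 8.38% and 18.6% rose and fell in the same order, and the shares of the 40 that fell, 5% to 22.5%, were near these. Fdxr, at 26.15 to 33.07 TPM in MFP and 2.54 to 5.70 TPM in LN and BM, led the falls in each, and Sesn1, at 1.59 to 1.70 TPM in MFP and 3.76 to 11.37 TPM in the latter, passed as a rise in each. With median ratio scaling the counts became 4 and 1 in LN CD44low, 3 and 3 in LN CD44high, 2 and 4 in BM CD44low and 4 and 5 in BM CD44high.

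**Figure D3:**
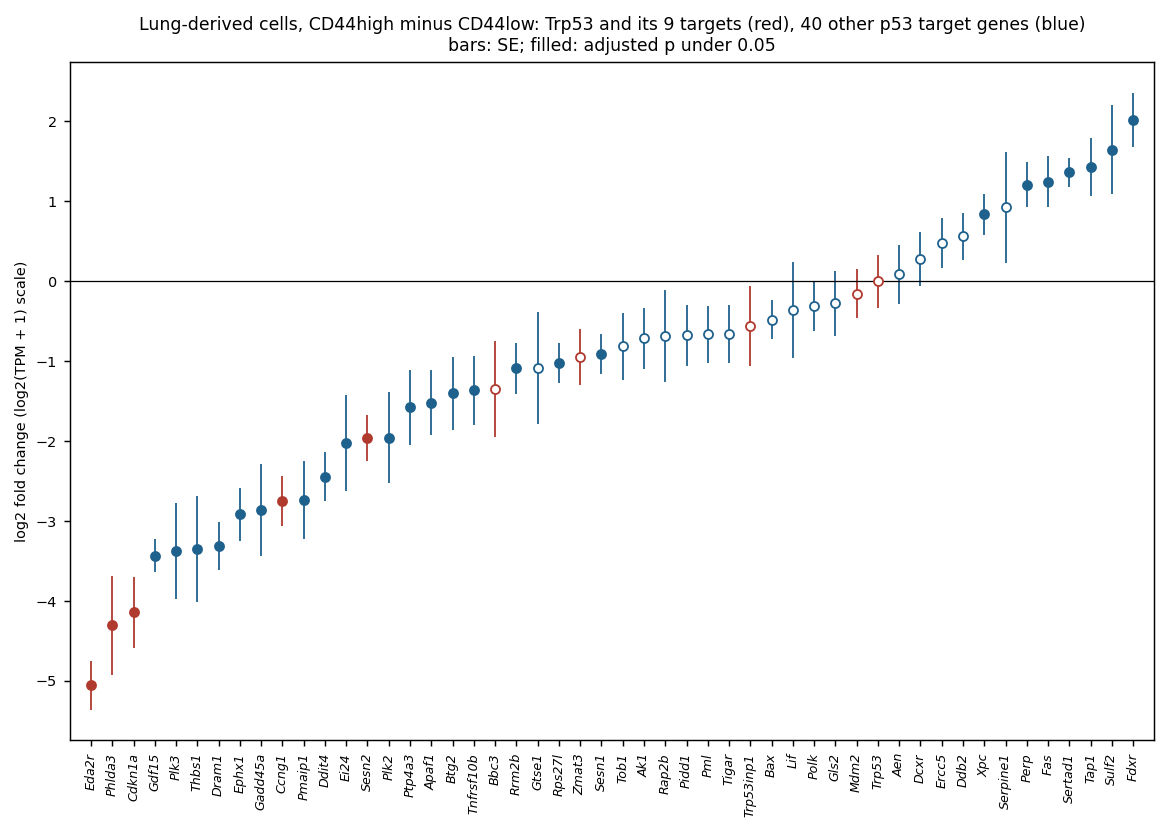
Log2 fold change of lung CD44high against lung CD44low cells (log2(TPM + 1) scale, 2 libraries a group) for Trp53 and its 9 targets in red and the 40 other p53 target genes in blue, in rising order. Bars are the SE and filled points passed. Eda2r, Phlda3 and Cdkn1a have the lowest values, Trp53 and Mdm2 lie near 0, and 7 other targets passed as rises.

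The genes that p21 and the DREAM complex shut down when p53 is active were also read, as 15 genes of the dividing cell. Their summed level was 42.4 and 49.6 TPM in lung CD44low and 6.82 and 88.0 TPM in lung CD44high, against 1161 and 1231 TPM in MFP and 3656 to 5851 TPM in LN and BM, save for the second LN CD44low library with 565 TPM. Most of the gap between MFP and the LN and BM libraries came from 1 gene, Birc5, with 160.89 and 145.56 TPM in MFP and 2496 to 4172 TPM in those 7 libraries. Without it the sums were 1016 and 1070 TPM in MFP and 1015 to 1827 TPM there, 220.1 TPM in the second LN CD44low library and 6.37 to 79.2 TPM in lung. At most 1 of the 15 genes passed in any LN or BM group against MFP, where 14% to 27% of all genes did. All 15 fell in both lung groups against MFP, with a median change of -4.43 in CD44low and -4.19 in CD44high against 0.00 and -0.04 over all genes. Of all genes, 23.1% fell in lung CD44low and 21.2% in lung CD44high. Between the lung groups none of the 15 passed in limma, where 30.7% of all genes did, and 0 had an unadjusted p under 0.05. The second LN CD44low library, lowest in cycling genes outside lung, had the highest Cdkn1a (426.29 TPM) and the lowest Trp53 outside lung (161.27 TPM). Of 6 other inhibitors of cyclin-dependent kinases, 3 fell from lung CD44low to lung CD44high (Cdkn2a, Cdkn2b and Cdkn1c) and none rose, where 18.5% of all genes fell. Cdkn1b (14.33 and 13.04 TPM to 32.25 and 19.21 TPM), Cdkn2c (59.71 and 51.06 TPM to 57.76 and 64.53 TPM) and Cdkn2d (30.69 and 27.27 TPM to 14.23 and 22.74 TPM) did not pass. Cdkn2b had 112.77 and 71.60 TPM in CD44low and 0.49 and 0.26 TPM in CD44high cells (a change of -6.05, SE 0.28, adjusted p = 1.49e-07). Cdkn1c had 7.78 and 7.11 TPM in lung CD44low and was listed at 0 in both lung CD44high libraries. Of the p53 relatives, Trp63 had 2.65 to 4.61 TPM in lung CD44high and at most 2.48 TPM elsewhere, and Trp73 did not reach the filter.

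**Figure D4:**
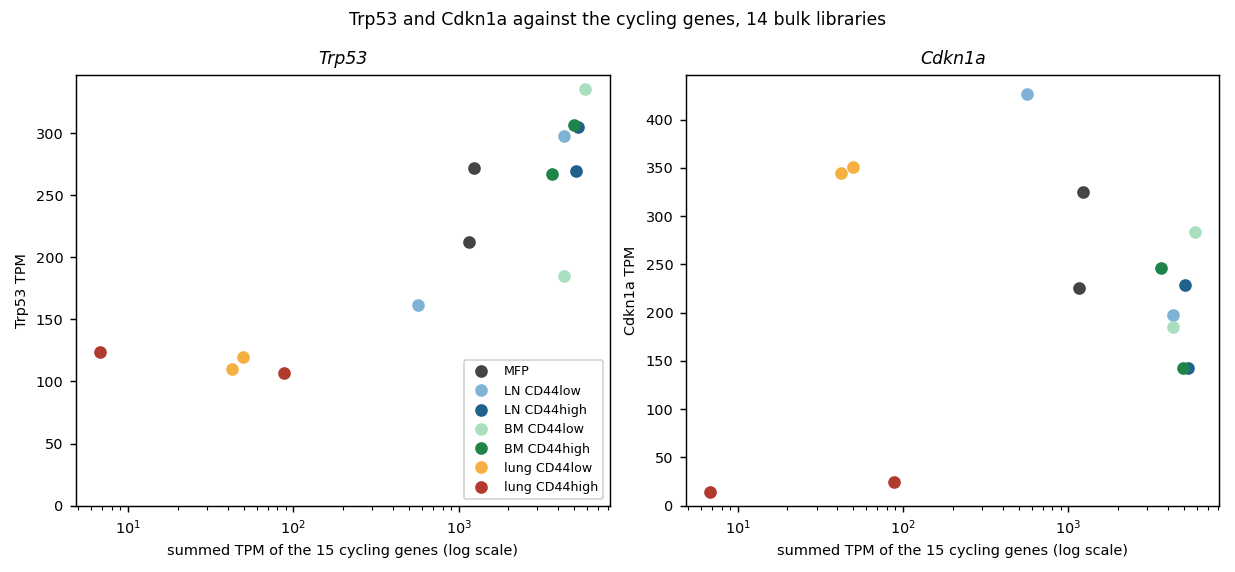
Trp53 (left) and Cdkn1a (right) in TPM against the summed TPM of 15 cycling genes on a log scale, 1 point for each of the 14 bulk libraries. The 4 lung libraries are at the left of both panels, together at 106.89 to 123.72 TPM of Trp53 but apart in Cdkn1a.

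As a measure of likeness, the genes with the highest Pearson r of log2(TPM + 1) over the 14 libraries were listed for 3 genes, as a description, since libraries of 1 group and organ are not independent points. For Trp53 they were Skp2 (0.966), Kif2c (0.966), Nup62 (0.965), Eme1 (0.965) and Hnrnpf (0.963). For Cdkn1a they were Kdelr3 (0.945), Il13ra1 (0.940), Mapk13 (0.938), Decr1 (0.936) and Ndrg1 (0.935), each at 1.32 TPM or less on average in lung CD44high. For Mdm2 they were Trim16 (0.943), Ap2a2 (0.925), Dlgap4 (0.925), Atp2a2 (0.924) and Fech (0.921). None of the lists holds another of the 10 genes.

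The single-cell libraries were read in the same way, as counts summed over cells with more than 250 genes and under 10% mitochondrial counts. This left 1236 of 3623 barcodes for lung CD44high, 348 of 2808 for lung CD44low and 2562 of 3297 for LN CD44high, with 2210623, 2220759 and 5287425 counts. The median cell held 557, 4011 and 585 counts. With 1 library each there is no test, and the exact Poisson 95% intervals in brackets cover counting error only. The deposited cells are numbered without barcode sequences, so cells shared between libraries could not be counted.

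Cdkn1a was again lowest in lung CD44high, at 0.525 per 10000 counts (0.434 to 0.629, 116 counts), against 1.30 in lung CD44low (1.15 to 1.46, 288 counts) and 1.35 in LN CD44high (1.26 to 1.46, 716 counts). Ccng1 was at 1.004 (0.876 to 1.15) in lung CD44high, 2.50 (2.30 to 2.72) in lung CD44low and 4.43 (4.26 to 4.62) in LN CD44high. Both genes thus had the order lung CD44high below lung CD44low, as in bulk, with intervals apart. The Cdkn1a gap was narrower than in bulk, where the means were 19.5 TPM in lung CD44high and 348 TPM in lung CD44low. Ccng1 was higher in LN CD44high than in lung CD44low here. In bulk it was lower in LN CD44high (83.51 and 95.80 TPM) than in lung CD44low (137.67 and 241.49 TPM). Eda2r had 0 counts in lung CD44high, which allows up to 0.0136 per 10000 at a floor of 3 counts (the exact interval reaches 0.0167), and 22 counts in lung CD44low (0.0991 per 10000) and 38 in LN CD44high (0.0719). In bulk Eda2r was much further apart in the latter groups, at 30.12 and 34.41 TPM in lung CD44low and 0.65 and 1.09 TPM in LN CD44high. Mdm2 was at 1.24 (1.10 to 1.40) in lung CD44high, 2.02 (1.84 to 2.22) in lung CD44low and 2.28 (2.15 to 2.41) in LN CD44high, whereas in bulk the LN CD44high libraries (45.52 and 45.59 TPM) were below those of lung CD44high (54.57 and 55.04 TPM). Zmat3 was at 0.222, 0.549 and 0.339 in the same order of libraries, and Trp53inp1 at 0.163, 0.131 and 0.357. Phlda3 gave 9, 14 and 45 counts, 0.0407, 0.0630 and 0.0851 per 10000, so its large excess in bulk lung CD44low was not met here, and Sesn2 (0, 2 and 8 counts) and Bbc3 (1, 0 and 4 counts) were too sparse to compare. Trp53 was at 1.08 (0.948 to 1.23) in lung CD44high, 0.766 (0.655 to 0.890) in lung CD44low and 0.687 (0.618 to 0.761) in LN CD44high, which is not the bulk order, where LN was above lung. The 15 cycling genes were at 19.5 per 10000 in lung CD44high, 6.12 in lung CD44low and 18.8 in LN CD44high. In bulk these genes were far lower in lung CD44high (6.82 and 88.0 TPM) than in LN CD44high (5097 and 5292 TPM). The 8 fibroblast markers were at 0.267, 21.4 and 0.115 per 10000 and the 5 smooth muscle markers at 0.0679, 59.9 and 0.0586, highest in lung CD44low as in bulk. The 9 epithelial markers were at 4.27, 0.878 and 9.22 per 10000. In lung CD44high 3 of the 9 had any count, and 573 of the 945 counts were from Krt18 and 369 from Krt8, while in LN CD44high 6 of the 9 had counts. Cdh1, Cldn3 and Krt14 had 0 counts in lung CD44high and 196, 1555 and 87 in LN CD44high. Epcam gave 3 counts in lung CD44high, 0 in lung CD44low and 936 in LN CD44high, while Krt18 was at 2.59 per 10000 (2.38 to 2.81) in lung CD44high and 1.17 (1.08 to 1.26) in LN CD44high.

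**Figure D5:**
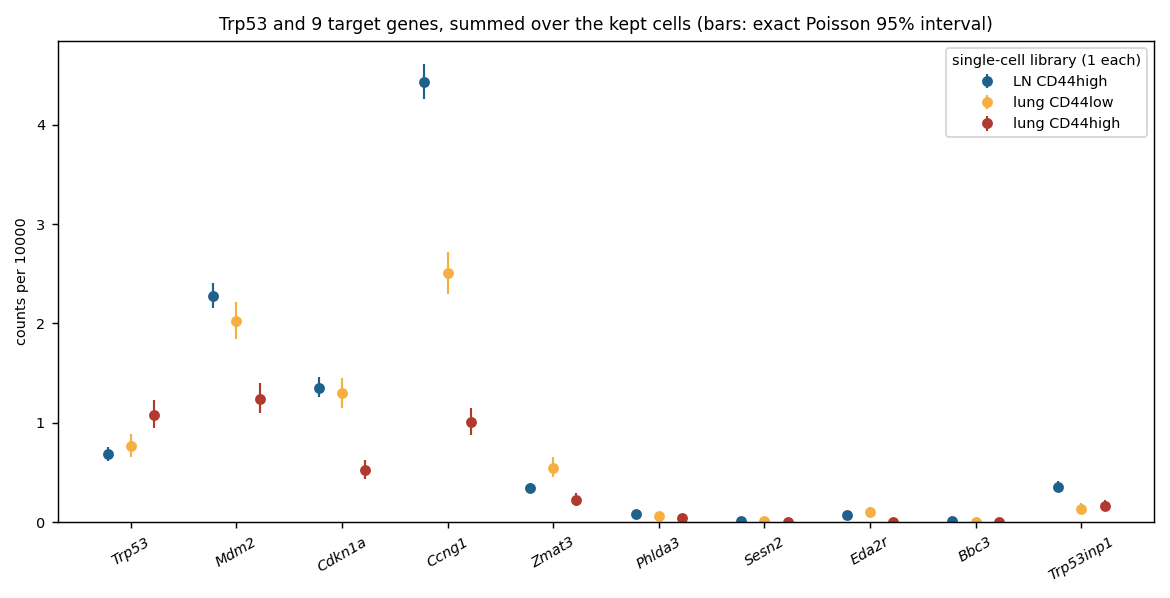
Counts per 10000 of the 10 genes summed over the kept cells of each single-cell library, with exact Poisson 95% intervals. Lung CD44high (red) is the lowest of the 3 libraries in Mdm2, Cdkn1a, Ccng1 and Zmat3 and the highest in Trp53.

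Among cells thinned to 1000 counts, Cdkn1a was seen in 0.901% of 222 lung CD44high cells (exact binomial 95% interval 0.109% to 3.22%), 10.9% of 238 lung CD44low cells (7.26% to 15.6%) and 16.01% of 306 LN CD44high cells (12.1% to 20.6%). Unthinned, the shares were 6.47%, 31.6% and 13.6%. Thinning left out 1014, 110 and 2256 shallower cells, and no library of cells known to lack Cdkn1a was at hand for a background share. Within a library, cells with a Cdkn1a count were compared with those without one, as a description. In LN CD44high the 349 cells with a count had 2.56 Mdm2 counts per 10000 (2.38 to 2.75) and the 2213 others 1.90 (1.72 to 2.09), and Ccng1 was at 4.87 (4.62 to 5.12) and 3.84 (3.59 to 4.11). In lung CD44low Mdm2 was at 2.47 (2.20 to 2.76) in 110 cells with a count and 1.48 (1.25 to 1.74) in 238 without, and Ccng1 at 2.85 (2.56 to 3.16) and 2.09 (1.81 to 2.39). In lung CD44high the intervals of both genes overlapped, with Mdm2 at 1.43 (1.11 to 1.83) and 1.195 (1.04 to 1.37). Trp53 in LN CD44high was at 0.689 (0.599 to 0.789) and 0.683 (0.579 to 0.800). Cells with a Cdkn1a count were deeper, with medians of 1577 against 570 counts in LN CD44high and 11776 against 1346 in lung CD44low, and the part of depth was not tested. Cells with at least 2 cycling counts and cells with none had overlapping intervals of Cdkn1a in each library: 0.432 (0.325 to 0.562) and 0.683 (0.501 to 0.908) in lung CD44high, 1.27 (1.06 to 1.51) and 1.53 (1.28 to 1.80) in lung CD44low, and 1.34 (1.22 to 1.47) and 1.36 (1.15 to 1.60) in LN CD44high. Mdm2 and Ccng1 also had overlapping intervals in the lung libraries. Zmat3 was lower in the lung CD44low cells with cycling counts, at 0.369 (0.258 to 0.511) against 0.693 (0.534 to 0.885), with intervals apart. In LN CD44high Mdm2 and Ccng1 were higher in the cells with cycling counts, Mdm2 at 2.45 (2.29 to 2.63) against 1.68 (1.45 to 1.95) and Ccng1 at 4.88 (4.65 to 5.13) against 3.82 (3.46 to 4.20). The cells with cycling counts were again deeper, with medians of 634 against 558 counts there, 664 against 546 in lung CD44high and 10080 against 1382 in lung CD44low. Split the other way, the cycling list was at 25.6 per 10000 (24.1 to 27.1) in lung CD44high cells with a Cdkn1a count and 18.0 (17.3 to 18.6) in those without, and in LN CD44high it was at 19.3 (18.8 to 19.8) and 18.2 (17.6 to 18.8). In lung CD44low it was lower in cells with a count, at 5.25 (4.85 to 5.67) against 7.19 (6.67 to 7.73). The intervals were apart in all 3 libraries, in unlike directions, and the cells with a count were the deeper ones.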

How the data were processed

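Bulk RNA of 14 libraries was amplified by SMART-seq2 in modified form, and the deposited TPM values come from STAR (mm10) and RSEM with the GENCODE v21 annotation of the study. They keep no depth, and no batch is named. The 2 libraries of a group come from separate clones and animals. The 3 deposited single-cell tables hold whole-number counts by gene and cell from ddSeq libraries, quantified by the authors with kallisto, and still include cells below the study's filter. All gene identifiers matched GENCODE vM21.

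A gene entered the fit if 2 or more libraries reached 1 TPM (15348 genes), and was fitted as log2(TPM + 1) in 7 group means with 7 residual degrees of freedom, using lmFit and eBayes (trend) of limma 3.58.1 in R 4.3.3, and 12 contrasts were taken from this 1 fit. The test is two-sided. The study itself used the exact test of edgeR on counts, which are not used here. Single-cell counts were summed over cells with more than 250 genes and under 10% mitochondrial counts with Python 3.11.15, numpy 2.4.6, scipy 1.17.1 and pandas 2.3.3, and doublets were not called. Bulk fits were tested on simulated data.

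The members, lists and tests were chosen with earlier results of these data known, and the limit on mismatches of the response element was set after the members' windows were read. The named genes are the 10 genes, the 14 regulators, the 3 largest rises and falls among the 40 other targets that passed with separate groups, and for Trp53, Cdkn1a and Mdm2 the 5 genes of highest Pearson r. Fas, Birc5, Krt18, the CDK inhibitors and Trp63 were named from their lists after their values were seen. As alternatives, the fit was repeated with 0.1 added in place of 1, without the filter (31466 genes), with a minimum of 5 TPM (11508 genes), with median ratio scaling (8694 genes), with a replicate block, and with each library left out in turn. For single cells they were more than 500 genes, a mitochondrial limit of 20% and all barcodes.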

Additional observations from a re-analysis of the deposited data

Results flagged for a closer look

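The CD44high minus CD44low difference in lung was unlike that in LN and BM in 5 of the 10 genes, by a test of the difference itself, the interaction contrast of limma over 2 libraries a group, where 22% of all genes passed, 11.3% in the negative direction. On the log2(TPM + 1) scale the difference between the differences was -3.65 in Cdkn1a, -2.13 in Ccng1, -2.74 in Phlda3 and -1.82 in Sesn2. The Phlda3 call was lost with no filter on low values (adjusted p = 0.0595) and without any 1 of the lung libraries, the first LN CD44high library or the second BM CD44high library (0.0572 to 0.105). In Eda2r it was -4.43, a fitted value that depends on the pseudocount (-7.09 with 0.1 in place of 1) because both lung CD44high libraries are at 0. In each of the 5 genes both lung CD44high libraries were below both lung CD44low libraries. The lung groups also differed in fibroblast markers (4708 to 5117 TPM against 85.7 to 194.8 TPM) and in the mitochondrial share, and the part of these in the 5 values was not tested.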

How the results depend on the processing

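Changes of single genes were followed here if they passed in the main fit or in an alternative that kept all libraries. There were 46 of these, 42 of which passed in the main fit, and none changed direction under any alternative. Changes that passed in no such fit were left out, and their direction under the alternatives is not given. The count of genes passing in LN CD44high against MFP went from 4 to 1 with median ratio scaling and to 2 with no filter on low values, and that in lung CD44low against MFP from 4 to 2 with no filter, which tests 31466 genes. Of all genes, the share passing in LN CD44high went from 23.8% to 16.8% with that scaling and to 10.7% with no filter. In lung CD44low it went from 45% to 23.2% with no filter. Cdkn1a in single cells of lung CD44high went from 0.525 to 0.417 per 10000 with more than 500 genes per cell (221 cells); the cause was not tested. With 1 library left out, the counts against MFP ranged from 1 to 5 in LN CD44high, 1 to 4 in BM CD44low, 4 to 5 in BM CD44high, 1 to 5 in lung CD44low and 4 to 7 in lung CD44high, and the count was 1 in every fit for LN CD44low. Between CD44high and CD44low cells the counts ranged from 5 to 7 in lung, from 0 to 3 in BM and from 4 to 8 for the mean of the organs, and stayed at 0 in LN. They ranged from 4 to 6 for the interaction and from 3 to 5 for lung against LN and BM. A left-out library leaves a group with 1 sample, which is then assumed to vary like the others.

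The replicate numbers carry no stated pairing, and taken over all groups same-numbered libraries did not deviate together (correlations from -0.19 to 0.17 over 21 pairs, 3 of them above 0.1). The 21 pairs mix all groups, so a pairing of CD44low and CD44high cells within an organ was not tested. With the number as a replicate block, 3 genes passed in LN CD44high and 3 in BM CD44low against MFP, and 3 in lung against LN and BM, in place of 4 each, each time with Trp53inp1 lost. The other counts were the same. TPM keeps no depth, so the counting error of low genes such as Zmat3 and Bbc3 is unknown, and with 2 libraries a group small changes could not be shown.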
